A study of Mus musculus with 441 samples.

Results

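The authors annotated 86 of 441 cells sorted from mouse pancreatic islets as activated CD4 T cells, and these 86 cells are described here. They were taken by the name in the deposited annotation, which gives each cell 1 class, and 61 of them belonged to the sort with the HIP tetramer and 25 to the sort with the Ins tetramer. A tetramer joins MHC class II molecules loaded with a peptide and binds T cells whose receptor recognises that pair, and the labels leave HIP and Ins unexplained. All 441 cells were isolated as CD4 T cells specific for beta cells, the insulin-producing cells of the islet, and were profiled singly with a full-length SMART-Seq2 protocol. The authors annotated 21 of them as B cells. The labels give no strain, age, genotype, treatment or animal for either sort, so each sort counts as 1 sample, and nothing in the labels shows whether a sort held cells of 1 animal or of a pool. The classes used beside it are the T follicular helper class (111 HIP and 61 Ins cells) and the Treg class (115 Ins cells, with only 3 in HIP).

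CD4 T cells that meet their antigen leave the naive state, which depends on the transcription factor TCF1 and on receptors for recirculation through lymph nodes, and become effector cells of several kinds. T follicular helper cells keep TCF1, use BCL6 and CXCR5, and help B cells through interleukin 21. Type 1 effector cells make interferon gamma and enter tissue through receptors such as CXCR3 and CXCR6, and cells that are stimulated for long carry inhibitory receptors such as PD-1, LAG3 and TIGIT and can make interleukin 10.

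Levels are in TPM, length-corrected shares of transcripts that sum to 1000000 in every cell and allow genes to be compared per length. Detection means at least 1 TPM, and a value of 0 may reflect RNA that was not captured: Gapdh, which every cell uses, stood at 0 in 7 of the 86 cells and Actb in none. TPM keeps no sequencing depth, so the number of detected genes stands in for the unknown depth. It was 2075 at the median in HIP cells of the class (839 to 3593) and 1862 in Ins cells (1205 to 3017), beside 1951 and 1963 in T follicular helper cells and 2017 in Ins Tregs. Rn45s, a precursor of ribosomal RNA, made up 1.93% of TPM in the average cell of the class (0.188% to 3.32%). Shares are given with exact Clopper-Pearson 95% intervals, and a count of 0 also with the share that 3 cells would make up. Both cover counting error only and leave out RNA that was not captured. No test was made, because cells of 1 sort are not replicates and the authors' classes rest on the same values that are compared here. In the cell names, every run of 96 numbers held a single sort, and the class made up 30.7% and 35.4% of the cells in the 2 HIP runs and 11.1%, 7.53% and 10.9% in the 3 Ins runs.

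The class carried the genes of a CD4 T cell. Cd3e, a signalling chain of the T cell receptor complex, was detected in 96.7% (HIP) and 96.0% (Ins) of its cells, and Cd4 in 91.8% and 96.0%. The 10 genes furthest above all other cells annotated as T cells in mean log2(TPM + 1) were Rgs1, Socs2, Cxcr6, Nkg7, Ms4a4b, Selplg, Gzmk, Lag3, Lgals1 and S100a6, of which Rgs1 and Lag3 are among the 6 markers of the class. This ranking took named genes found in 25% of the class and pooled the sorts, which the class and the other cells hold in unlike proportions. It also depends on the mix of other classes. Ms4a4b differed by 1.24 (HIP) and 0.88 (Ins) from T follicular helper cells and by 5.85 from Ins Tregs, and Lag3 by -1.49 from Ins Tregs. Cd69, an early activation receptor, was found in 9.30% of the class, and Il2ra, the interleukin 2 receptor chain induced by stimulation, in 5.81%. Both were picked after their values were seen, and they do not stand for activation genes in general. Tnfrsf4, of the antigen receptor response list below, was found in most cells of the class. In mean log2(TPM + 1), Cd69 differed from T follicular helper cells by -1.74 (HIP) and -0.64 (Ins), and Il2ra by 0.10 and 0.17. Foxp3, the Treg lineage factor, was found in 4 of 25 Ins cells and in 0 of 61 HIP cells, where the limit of 3 cells is a share of up to 4.92% and the exact interval ends at 5.87%. Of 9 B cell and plasma cell markers in the table, 6 were found in no cell of the class, among them Ms4a1, Cd79a, Cd79b, Ebf1 and Sdc1, and the summed level of the 9 ranged from 0 to 2922 TPM with a median of 0.675, beside 0.75 in HIP and 0.47 in Ins T follicular helper cells. Of 9 myeloid and dendritic cell markers, Lyz2, C1qb, Itgax, Itgam and Flt3 were in no cell, and the summed level ranged from 0 to 6577 TPM, with medians of 840.5 TPM in the class and 4.63 and 7.01 TPM in HIP and Ins T follicular helper cells. Cst3, a protease inhibitor in that list, was found in 60.5% of the class and 81.7% of Ins Tregs. Of 6 markers of CD8 T, NK and gamma delta T cells, Klrb1c and Fcer1g were in no cell, Cd8a was in 1 of 86, and the summed level ranged from 0 to 975.6 TPM. Of 10 islet and acinar markers, 8 were found in some cell, with Ins2, the insulin gene, in 6.98% and a median summed level of 0. Of 4 endothelial and red cell markers, Pecam1 was found in 5.81% and the others in none. Mki67, a marker of dividing cells, was found in 4 of 86.

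Promoters are shown for 5 genes on which the account turns, the class markers Il21, Ifng and Pdcd1 and the 2 genes furthest above T follicular helper cells in both sorts, Nkg7 and Cxcr6. Each is the 250 bases before the annotated start, from RefSeq on GRCm38.p6, read 5′ to 3′ on the strand of the gene. They lie at chr3:37232637-37232886 on the reverse strand, chr10:118440796-118441045 on the forward strand, chr1:94052554-94052803 on the reverse strand, chr7:43436888-43437137 on the forward strand and chr9:123806227-123806476 on the forward strand. Of the 6 class markers 3 were matched by symbol, and the others are Lag3, Il10 and Rgs1. Capitals mark matches on either strand to 3 motifs, the NFAT core GGAAA, the AP-1 motif TGANTCA and the TATA box TATAAA, and matches can adjoin or overlap.
Il21: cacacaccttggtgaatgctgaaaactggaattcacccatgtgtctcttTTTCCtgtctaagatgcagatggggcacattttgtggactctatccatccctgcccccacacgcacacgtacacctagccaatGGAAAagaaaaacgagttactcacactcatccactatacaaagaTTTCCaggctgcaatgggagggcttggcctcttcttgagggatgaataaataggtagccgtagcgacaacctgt
Ifng: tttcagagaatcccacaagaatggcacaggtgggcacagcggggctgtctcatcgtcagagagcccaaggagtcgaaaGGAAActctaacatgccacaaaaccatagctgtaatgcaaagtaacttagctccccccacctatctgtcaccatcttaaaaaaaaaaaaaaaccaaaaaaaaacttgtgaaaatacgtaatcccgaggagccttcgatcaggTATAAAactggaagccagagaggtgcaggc
Pdcd1: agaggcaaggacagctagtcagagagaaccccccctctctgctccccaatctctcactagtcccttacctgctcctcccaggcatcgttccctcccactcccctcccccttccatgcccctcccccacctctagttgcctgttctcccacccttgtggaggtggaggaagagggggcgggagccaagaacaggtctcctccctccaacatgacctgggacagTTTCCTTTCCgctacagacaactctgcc
Nkg7: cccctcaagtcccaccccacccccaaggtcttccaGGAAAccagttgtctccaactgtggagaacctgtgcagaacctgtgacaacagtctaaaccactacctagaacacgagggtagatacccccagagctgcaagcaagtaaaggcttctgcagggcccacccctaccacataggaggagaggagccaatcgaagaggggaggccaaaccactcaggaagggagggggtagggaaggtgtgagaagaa
Cxcr6: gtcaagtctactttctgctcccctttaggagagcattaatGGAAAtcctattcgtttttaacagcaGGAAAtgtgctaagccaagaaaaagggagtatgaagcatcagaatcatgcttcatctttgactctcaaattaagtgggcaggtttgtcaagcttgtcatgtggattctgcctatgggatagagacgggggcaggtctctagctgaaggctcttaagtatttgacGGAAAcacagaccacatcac
NFAT and AP-1 are factors that T cell receptor signals activate. The NFAT core matched 3 times in Il21 and Cxcr6, 2 times in Pdcd1 and 1 time in Ifng and Nkg7, and it has a match in 55.6% of 32851 promoters of this length. The TATA box matched only in Ifng, where it begins 30 bases before the start, and it occurs in 12.4% of all promoters. The AP-1 motif, found in 6.75%, has no match in these 5 windows. A match is a run of letters and says nothing of binding in these cells.

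Lag3 was found in nearly every cell of the class, and the other markers split it. Lag3 (chromosome 6, 124904359 to 124912434, mm10), an inhibitory receptor that binds MHC class II, was detected in 81 of 86 cells (94.2%, 86.9% to 98.1%). Its level was 3528 ± 2687 TPM (mean and SD over cells, as below), with detected cells running from 1.95 to 12610 TPM around a median of 3678. Rgs1 (chromosome 1, 144244669 to 144249104), which dampens signals of chemokine receptors, was found in 59 cells (68.6%, 57.7% to 78.2%), with 1.69, 1220 and 15830 TPM as the lowest, median and highest detected values. Pdcd1 (chromosome 1, 94038305 to 94052553), which encodes PD-1, was found in 53 cells (61.6%, 50.5% to 71.9%), with 1.70, 1245 and 8282 TPM. These 3 genes were thus detected in most cells, with detected levels that spread widely from cell to cell.

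The 3 cytokine genes among the markers were each found in a minority of the cells. Il21 (chromosome 3, 37222759 to 37232636) was detected in 36 of 86 cells (41.9%, 31.3% to 53.0%), at 1.62, 120 and 821 TPM (lowest, median and highest). Il10 (chromosome 1, 131019845 to 131024970) was detected in 26 cells (30.2%, 20.8% to 41.1%), at 1.42, 550 and 4161 TPM. Ifng (chromosome 10, 118441046 to 118445894) was detected in 17 cells (19.8%, 12.0% to 29.8%), at 21.0, 487 and 1652 TPM. Il21 was thus found in the most cells and at the lowest level. Both sorts held cells with each marker: Lag3 in 95.1% of HIP and 92.0% of Ins cells, Rgs1 in 75.4% and 52.0%, Pdcd1 in 62.3% and 60.0%, Il21 in 45.9% and 32.0%, Il10 in 34.4% and 20.0%, and Ifng in 24.6% and 8.00%. With 25 Ins cells the intervals of the sorts overlapped for all 6 genes. The Ins share of Ifng rests on 2 cells, both from the same run of cell numbers.

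**Figure D1:**
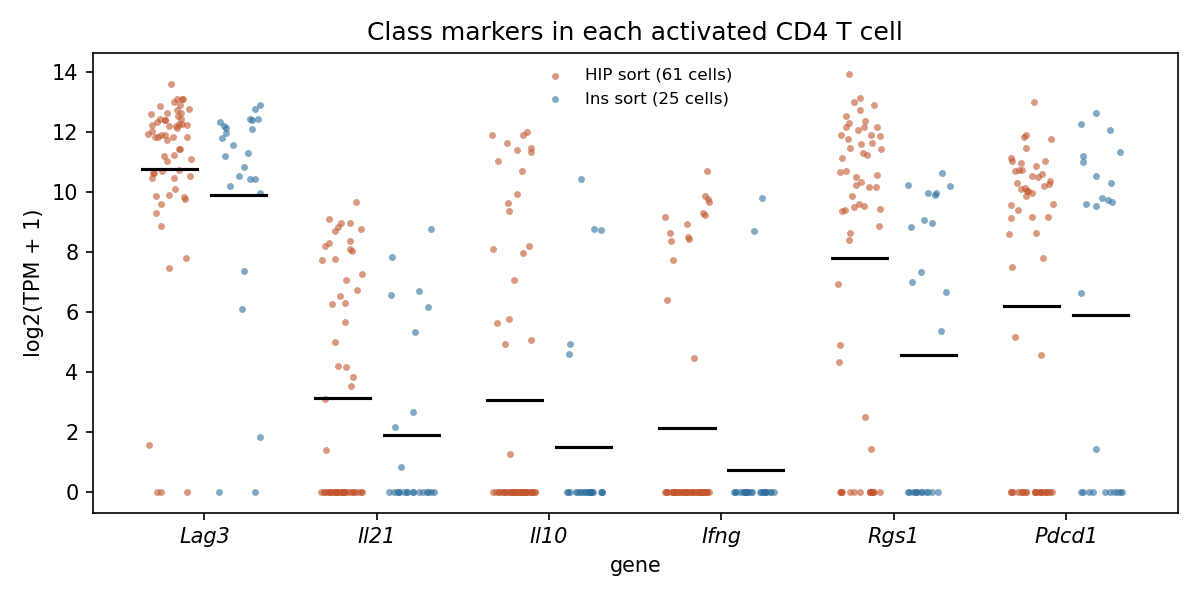
Level of the 6 class markers in each cell of the class, as log2(TPM + 1) on the vertical axis, with HIP cells (61) and Ins cells (25) side by side for each gene and a black line at each mean. Lag3 lies high in nearly all cells, while Il21, Il10 and Ifng divide the cells into a row at 0 and a scattered upper group, in both sorts.

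The same 6 genes were read in T follicular helper cells and Tregs of the same sorts. Among T follicular helper cells, Lag3 was found in 53.2% (HIP) and 78.7% (Ins), at 546.3 ± 865.4 and 892 ± 1017 TPM, against 3757 ± 2802 and 2969 ± 2342 TPM in the class. Ins Tregs held Lag3 in 98.3% of cells at 4215 ± 3090 TPM. Among T follicular helper cells Il10 was in 0 of 111 (HIP) and 2 of 61 (Ins), but it was found in 45.2% of Ins Tregs. Il21 showed the reverse, with 23.4% and 27.9% of T follicular helper cells and 3 of 115 Tregs. Ifng was found in 9.91% and 0 of 61 T follicular helper cells and in 3 of 115 Tregs, and Pdcd1 in 62.2% and 55.7% and in 40.9%. Il21 was thus found in the class and in T follicular helper cells, Il10 in the class and in Tregs, and Lag3 in all 3 classes.

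At least 1 of Il21, Il10 and Ifng was detected in 55 of 86 cells (64.0%, 52.9% to 74.0%) and 2 or more in 23 (26.7%, 17.8% to 37.4%). Among HIP cells, 10 held Il21 alone, 7 Il10 alone and 6 Ifng alone. A further 11 held Il21 with Il10, 6 Il21 with Ifng, 2 Il10 with Ifng, 1 all 3 and 18 none. Among Ins cells, 5 held Il21 alone, 2 Il10 alone, 2 Ifng alone, 3 Il21 with Il10 and 13 none. Il21 with Il10 was the most frequent pair in both sorts, and Ifng with Il10 was found in 3 of 86 cells. Il10 was detected in 15 of 36 cells with Il21 (41.7%, 25.5% to 59.2%) and in 11 of 50 without it (22.0%, 11.5% to 36.0%), and these intervals overlap. Ifng was detected in 19.4% of cells with Il21 (8.19% to 36.0%) and 20.0% of cells without it (10.0% to 33.7%). Il21 and Il10 were found together in 12 of the 61 cells in HIP and 3 of the 25 in Ins for the class, 0 of 111 and 0 of 61 T follicular helper cells, 2 of 115 Tregs and 1 of 44 dividing cells. At least 1 of the 3 cytokines was found in 70.5% (HIP) and 48.0% (Ins) of the class. The share was 47.0% in Ins Tregs, and 35 of 111 and 19 of 61 T follicular helper cells held at least 1. Among dividing cells 7 of 9 (HIP) and 15 of 35 (Ins) did, so this share was not particular to the class. Cells with 2 or more numbered 20 of 61 and 3 of 25 in the class. They numbered 2 of 111 and 0 of 61 in T follicular helper cells, 4 of 115 in Tregs and 1 of 9 and 3 of 35 in dividing cells. All 3 genes are markers of the class, chosen with earlier results of these data known. A higher share with 2 or more in the class therefore follows in part from that choice and does not set the class apart. Il10 was in 0 of 111 HIP T follicular helper cells, so no pair with Il10 could occur there. The 43 cells of the class with fewer genes detected and the 43 with more held 2 or more of the cytokines in 11 and 12 cells.

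**Figure D2:**
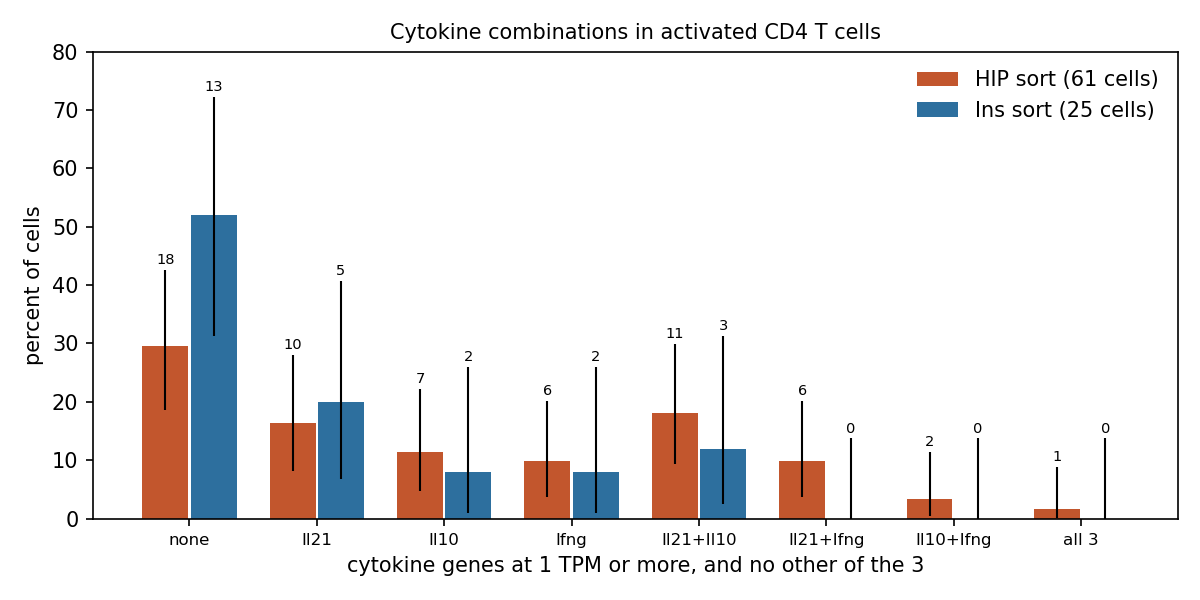
Percent of HIP (61) and Ins (25) cells of the class with each exact combination of Il21, Il10 and Ifng at 1 TPM or more, with bars from 0, exact 95% intervals as lines and the number of cells above each. Cells with none are the largest group in both sorts (18 and 13 cells), and Il21 with Il10 is the most frequent combination of 2 genes (11 and 3 cells).

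Compared with T follicular helper cells, the class held more cells with chemokine, cytotoxic, tissue-homing and inhibitory receptor genes and fewer with follicular genes, in both sorts. Differences are of mean log2(TPM + 1), class minus T follicular helper cells of the same sort. A gene entered if detected in 10% of the cells of either class, and a difference of 1 or more was counted. In the HIP sort 500 of 5835 genes lay higher (8.57%) and 162 lower (2.78%). In the Ins sort 597 of 6159 lay higher (9.69%) and 505 lower (8.2%). Of 5261 genes that entered in both, 171 lay higher in both sorts (3.25%) and 62 lower in both (1.18%). The median over all genes was 0.09 in HIP and -0.01 in Ins. These counts describe the cells at hand and come with no estimate of how many genes would pass by the sampling of cells. Where many cells hold 0 the difference largely follows the share of cells detected, so shares are given first.

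**Figure D3:**
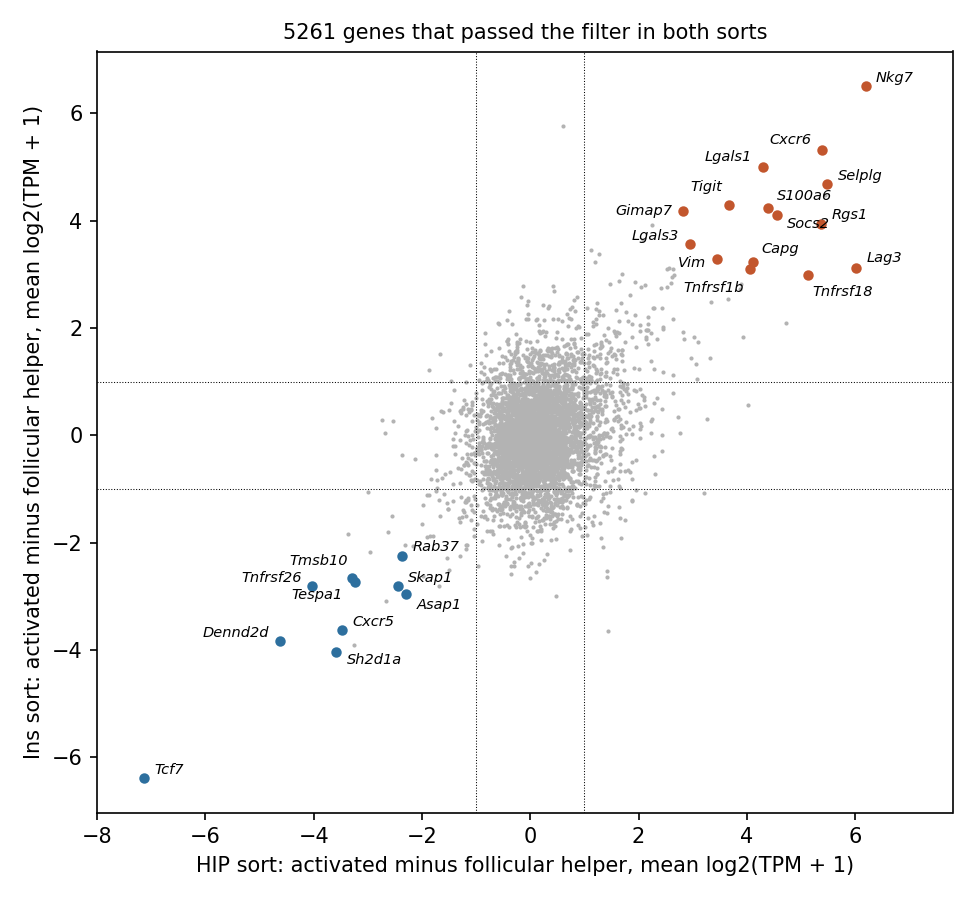
Difference of mean log2(TPM + 1), class minus T follicular helper cells, in the HIP sort (horizontal axis) and the Ins sort (vertical axis) for 5261 genes, with dotted lines at 1 and -1. Red points are the 15 genes furthest above and blue points the 10 furthest below in both sorts, with Nkg7 (6.19 and 6.51) and Tcf7 (-7.13 and -6.39) at the ends.

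Nkg7, a granule protein of cytotoxic lymphocytes (chromosome 7, 43437138 to 43438246), had the largest positive difference shared by both sorts. Its transcripts were detected in 60.7% (HIP) and 64.0% (Ins) of the class and in 10.8% and 9.84% of T follicular helper cells, and its mean was 2937 ± 3509 and 3397 ± 4112 TPM against 196.5 ± 711.7 and 120.3 ± 464.5 TPM. Other cytotoxic and chemokine genes followed in smaller shares. Gzmk, which encodes granzyme K, was found in 42.6% and 16.0% of the class (9.01% and 1.64% of T follicular helper cells). Ccl5, a chemokine that draws T cells, was found in 23.0% and 32.0% (0.901% and 8.20%). Ccl4 was found in 31.1% and 16.0% (0 of 111 and 0 of 61), and Ccl3 in 21.3% and 12.0% (0.901% and 0 of 61). The RefSeq spans of Ccl3 and Ccl4 on chromosome 11 overlap, so reads could be shared between these neighbours. Of 16 genes of this list, 7 entered in both sorts, 6 lay higher in both (the sixth being the protease inhibitor Serpina3g) and Ctsw lay lower in both. With a pseudocount of 10 TPM the Ins differences of Gzmk and Ccl3 were 0.97 and 0.85, which leaves 4 higher in both. Gzmb and Prf1, the granzyme B and perforin genes of full killer cells, were found in 2 of 86 and 0 of 86 cells, the latter allowing a share of up to 3.49% by the limit of 3 cells and 4.20% by the exact interval.

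Genes for movement into tissue were the next group. Cxcr6 (chromosome 9, 123806477 to 123811754), a receptor that holds T cells in tissue, was found in 54.1% and 68.0% of the class and in 2.70% and 3.28% of T follicular helper cells. Selplg, which encodes the selectin ligand PSGL-1, was found in 85.2% and 80.0% against 30.6% and 32.8%. Cxcr3, the receptor for interferon-induced chemokines, was found in 59.0% and 52.0% against 31.5% and 26.2%, with differences of 2.62 and 2.95. Ccr2 was found in 24.6% and 36.0% (0 of 111 and 8.20%) and Ccr8 in 37.7% and 36.0% (12.6% and 4.92%). Of 19 tissue homing and adhesion genes in the table, 14 entered in both sorts, 8 lay higher in both and 2 lower (Cxcr4 and Itgb1), and with a pseudocount of 10 TPM 6 lay higher, without Ccr2 and Itga4, and 0 lower. Of 18 type 1 helper genes, 10 entered in both sorts and 4 lay higher in both, among them Cxcr3, Cxcr6 and Id2, a factor that opposes the follicular programme, whose Ins difference was 0.77 in cells with at least 1500 genes. Tbx21, which encodes the type 1 master factor T-bet, was found in 16.4% and 8.00% of the class and 7.21% and 9.84% of T follicular helper cells, with differences of 0.68 and -0.21.

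Several inhibitory receptors were found in more cells of the class. Tigit was found in 85 of 86 cells of the class at 4747 ± 3247 TPM, and in 78.4% and 77.0% of T follicular helper cells at 2003 ± 2065 and 1728 ± 1914 TPM. Ctla4 was found in 63.9% and 64.0% of the class against 45.0% and 32.8%. Entpd1, which encodes the ATP-degrading enzyme CD39, was found in 50.8% and 24.0% against 1.80% and 4.92%. Havcr2, which encodes TIM-3, was found in 24.6% and 8.00% against 4.50% and 0 of 61. Of 15 genes in the table from the inhibitory receptor list, 10 entered in both sorts and 4 lay higher in both. These were the receptor genes Ctla4, Lag3 and Tigit and the enzyme gene Entpd1. Pdcd1 did not differ by 1 or more in either sort (0.12 and 0.34). At least 3 of Lag3, Tigit, Pdcd1, Ctla4 and Havcr2 were detected in 85.2% and 88.0% of the class, 52.3% and 55.7% of T follicular helper cells and 87.0% of Tregs, and all 5 in 6 of 86 cells of the class.

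Among costimulatory receptors, 3 of 10 that entered in both sorts lay higher in both: Tnfrsf18, which encodes GITR (73.8% and 76.0% against 27.9% and 47.5%), Tnfrsf4, which encodes OX40 (68.9% and 72.0% against 36.9% and 44.3%), and the TNF receptor gene Tnfrsf1b (67.2% and 56.0% against 19.8% and 26.2%). Of the transcription factor list that marks exhausted and interleukin 10-producing type 1 regulatory cells, 11 of 15 genes entered in both sorts and 2 lay higher in both, of which Maf no longer did with a pseudocount of 10 TPM in place of 1 TPM (0.96 and 0.83 in place of 1.69 and 1.51). Prdm1 (chromosome 10, 44437174 to 44528558), which encodes Blimp-1, was found in 41.0% and 28.0% of the class and in 1 of 111 and 2 of 61 T follicular helper cells. Maf, a factor for interleukin 10 and interleukin 21, was found in 57.4% and 56.0% against 34.2% and 32.8%. Tox, a factor of exhausted and follicular cells, was found in 42.6% and 44.0% against 50.5% and 47.5%. Outside these lists, Lgals1 (a galectin, 93.4% and 88.0% against 60.4% and 45.9%), S100a6 (a calcium-binding protein, 77.0% and 56.0% against 32.4% and 16.4%) and Socs2 (a suppressor of cytokine signals, 52.5% and 44.0% against 2.70% and 1.64%) stood among the 15, with Vim, Capg, Lgals3 and Gimap7.

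The genes lower in both sorts were led by Tcf7 (chromosome 11, 52246527 to 52283383), which encodes TCF1. It was detected in 7 of 86 cells of the class and in 80.2% of HIP and 77.0% of Ins T follicular helper cells, at 38.2 ± 144.9 TPM in the class and 1035 ± 1150 and 887 ± 878.8 TPM in T follicular helper cells. Cxcr5, the follicle-homing receptor, was found in 3.28% and 8.00% of the class against 40.5% and 45.9%. Bcl6, the follicular master factor, was found in 4.92% and 12.0% against 47.7% and 39.3%. Sh2d1a, the adaptor SAP of T and B cell contacts, was found in 36.1% and 8.00% against 65.8% and 50.8%. Of 19 T follicular helper genes, 14 entered in both sorts, 6 lay lower in both (Cxcr5, Bcl6, Sh2d1a, Slamf6, Tcf7 and Id3) and 0 higher. Il21, a member of that list, differed by 1.62 in HIP and 0.27 in Ins. Dennd2d, Tnfrsf26, Tespa1, Tmsb10, Skap1, Asap1 and Rab37 completed the 10 lowest, and Asap1 was found in 0 of 86 cells of the class (up to 3.49% by the limit of 3 cells, 4.20% by the exact interval) against 38.7% and 45.9%.

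**Figure D4:**
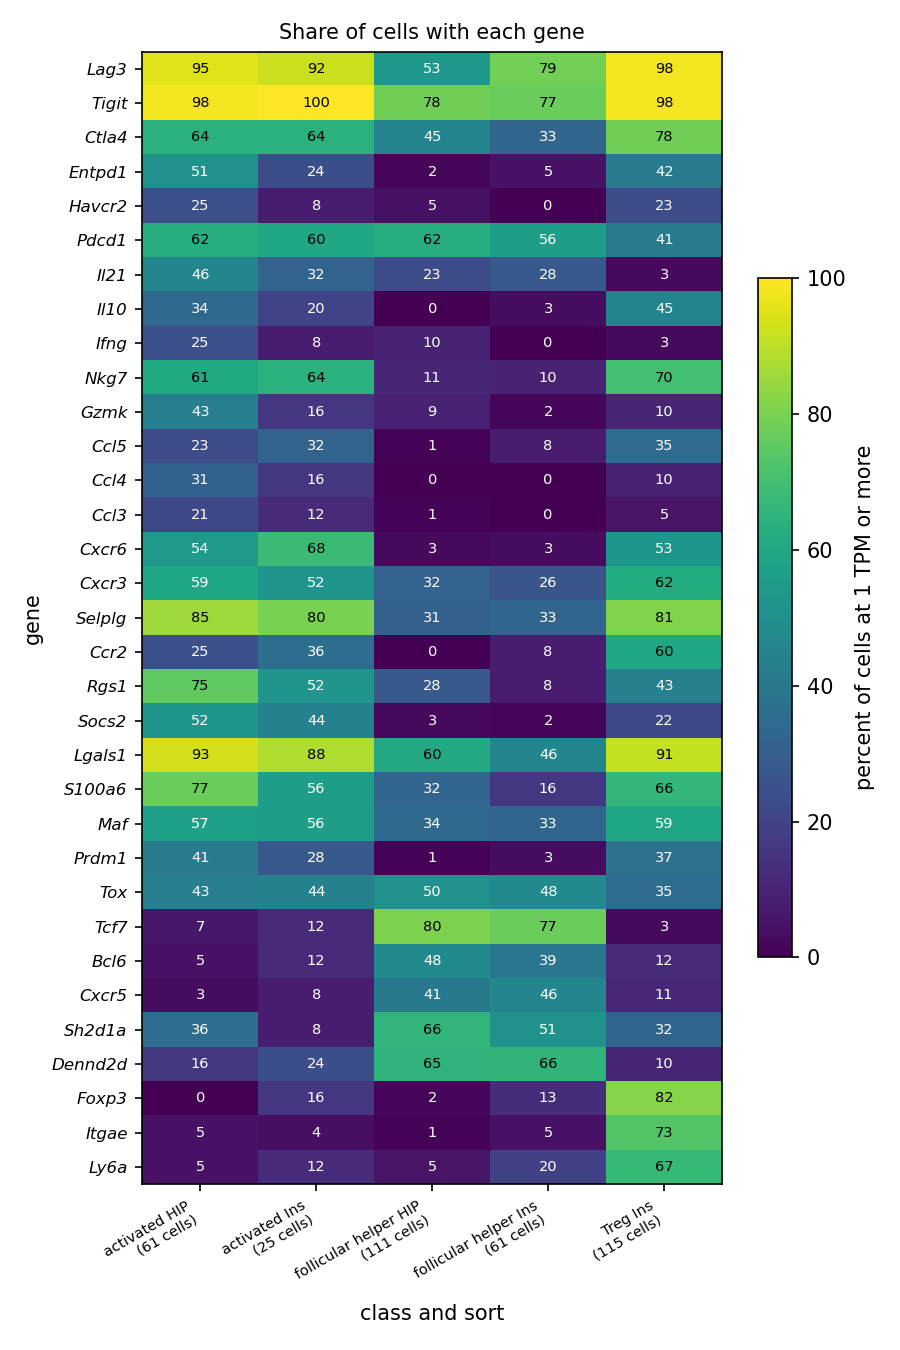
Percent of cells with each gene shown at 1 TPM or more, from 0 (dark) to 100 (yellow) with the rounded value printed, in the class (HIP 61 and Ins 25 cells), in T follicular helper cells (111 and 61) and in Ins Tregs (115). Nkg7, Cxcr6, Selplg, Lgals1, Maf and Prdm1 stand at like shares in the class and in Tregs, while Tcf7, Bcl6 and Cxcr5 stand highest in T follicular helper cells.

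The remaining lists are given by how many members lay apart from T follicular helper cells. Over all 5261 genes that entered in both sorts, 3.25% lay higher in both and 1.18% lower in both. Beside these shares, a count of 0 or 1 in a list this short does not set the list apart. Of 16 genes of the antigen receptor response, 9 entered in both sorts and only Tnfrsf4 lay higher in both. Of 10 immediate early and stress genes and 12 glycolysis genes that entered in both sorts, 0 lay 1 or more apart in the same direction in both, as did 0 of 7 cell division genes. Of 8 interferon response genes, Gbp4, an interferon-induced GTPase, lay higher in both, with 55.7% (HIP) and 44.0% (Ins) of the class against 30.6% and 26.2%, but its difference in HIP was 0.85 with a pseudocount of 10 TPM and 0.62 in cells with at least 1500 genes. Of 17 cytokine genes in the table, 7 entered in both sorts. Il10 lay higher in both, and Tnfsf8 and Cd40lg, the gene of the B cell helper ligand CD40L, lay lower in both, with Cd40lg in 21.3% and 12.0% of the class against 36.0% and 27.9%. With a pseudocount of 10 TPM none of these 3 genes lay apart in both sorts: Il10 differed by 1.98 and 0.79, Tnfsf8 by -0.96 in HIP, and Cd40lg by -0.96 and -0.76. Lgals3 was the only 1 of 7 anergy genes to lie higher in both sorts. Of 6 RGS genes Rgs1 lay higher and Rgs10 lower in both (Rgs10 by -0.94 in Ins with a pseudocount of 10 TPM), and of 6 naive and recirculation genes Tcf7 alone differed in both, lower. Il7r, the interleukin 7 receptor of resting cells, was found in 7 of 86 cells. Of 14 genes of the T cell receptor complex, Cd4 and Cd6 lay higher and Ptprc lower in both, though Cd4 differed by 0.91 in Ins cells with at least 1500 genes and Ptprc by -0.76 in Ins with a pseudocount of 10 TPM. Among 8 regulatory T cell genes that entered in both sorts, Il2rb, Ctla4, Tnfrsf18 and Capg lay higher and Cd83 lower. Of 6 type 2 and type 17 genes in the table only Gata3 entered in both sorts, and it differed by -0.06 and -0.47.

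Many genes that stood above T follicular helper cells stood at like levels in Tregs, which were compared in the Ins sort. There 408 of 6165 genes lay higher in the class by 1 or more (6.62%) and 612 lower (9.93%), with a median of -0.04. The comparison uses the same 25 Ins cells of the class as the one above, so only each gene's own values are set side by side. Nkg7 was found in 64.0% of these cells and 69.6% of Tregs, Cxcr6 in 68.0% and 53.0%, Selplg in 80.0% and 80.9%, Tigit in 100.0% and 98.3%, Maf in 56.0% and 59.1%, and Prdm1 in 28.0% and 37.4%. Ccl5 was found in 32.0% and 34.8%, and Tcf7 in 3 of 25 and 3 of 115 cells. The class and the Tregs therefore held these genes in shares whose intervals overlapped.

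The genes that did lie lower than in Tregs included those that define Tregs. Foxp3 was found in 4 of 25 cells against 81.7% (difference -6.20), Itgae, the CD103 integrin chain of tissue-resident cells, in 1 of 25 against 73.0% (-6.34), and Ly6a, which encodes Sca-1, in 3 of 25 against 67.0% (-6.63). Ctss, Arl5a, Ifngr1, Ctsw and Pglyrp1 completed the 8 lowest, with differences from -4.47 to -3.61. Of 14 regulatory T cell genes that entered, 10 lay lower and 1 (Nrp1) higher, in place of which 4 and 0 did with a pseudocount of 10 TPM. Of 11 costimulatory receptors 8 lay lower, among them Icos, Tnfrsf4, Tnfrsf9 and Tnfrsf18, and 1 (Cd226) higher. With that pseudocount 6 of them lay lower, without Tnfrsf9 (-0.69) and Cd2 (-0.96), and 0 higher. On the other side stood Ms4a4b, a membrane protein of T cells, in 72.0% against 15.7% (5.85). It was followed by Anxa2 (84.0% against 48.7%), Ptger2, a prostaglandin E2 receptor (56.0% against 20.9%), Tbc1d4, Rnf5, Ubash3a, Eif4a2 and Cd82, with differences from 3.94 down to 2.70. Lgals3 was found in 40.0% against 20.9%, and Il21 in 32.0% against 2.61%. Of 5 cytokine-list genes higher than in Tregs, Lta, Ltb, Tnfsf8 and Cd40lg joined Il21, while Il10 and Csf1 lay lower, and with a pseudocount of 10 TPM Tnfsf8 alone lay higher and Il10 alone lower.

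The programme varied from cell to cell in how much of it was detected. Of the 15 genes furthest above T follicular helper cells, each cell of the class held between 5 and 15, with a median of 11 in HIP and 10 in Ins cells. At least 8 were detected in 93.4% of HIP cells (57 of 61, interval 84.0% to 98.2%) and in 92.0% of Ins cells (23 of 25, 74.0% to 99.0%). T follicular helper cells held a median of 4 in both sorts, and 11.7% and 11.5% held at least 8, a contrast that the choice of the genes fixes. Ins Tregs, which played no part in that choice, held between 5 and 15 with a median of 10, and 93.0% (86.8% to 97.0%) held at least 8. The 44 dividing cells, also outside that choice, held between 4 and 15 with a median of 11, and 97.7% held at least 8. They had more genes detected, with a median of 3614.5. A high count of the 15 was thus not particular to the class. Over the runs of 96 cell numbers the medians were 10 and 11 in HIP and 11, 10 and 9 in Ins. Spearman's rho with the number of genes detected was 0.43 over the 61 HIP cells and 0.30 over the 25 Ins cells of the class, so cells with more genes detected tended to hold more of the 15.

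**Figure D5:**
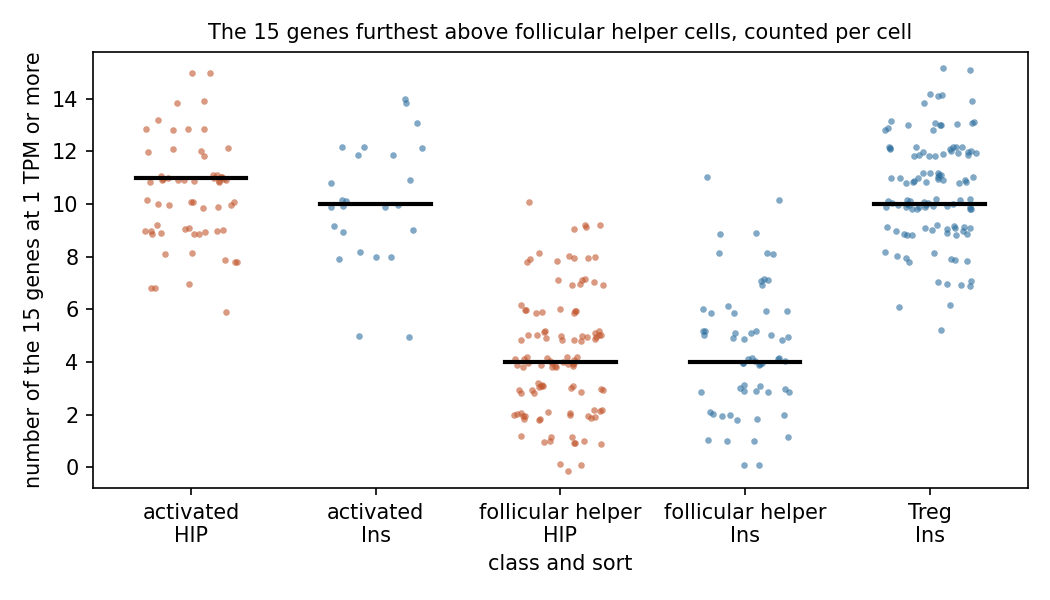
Number of the 15 genes furthest above T follicular helper cells that were at 1 TPM or more in each cell (vertical axis, points spread slightly), by class and sort, with black lines at the medians. The class lies at medians of 11 (HIP) and 10 (Ins), T follicular helper cells at 4 and Ins Tregs at 10.

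Some genes were absent from many cells and very high in others. Ccl5 led the genes detected in 20% to 60% of the class, with 22 of 86 cells (25.6%, 16.8% to 36.1%) and a median of 4456 TPM where detected, and its highest cells reached 39120 TPM in HIP and 65430 TPM in Ins. Its mean of 2594 ± 8820 TPM over the class therefore came from few cells. The other 9 genes by this measure were Ifi27l2a, Tspo, Atp6v0e, Atp6v1f, S100a4, Rnasek, Psmb3, Grcc10 and Psmb5, with medians of 1679 down to 1185 TPM where detected. Apart from Ccl5, Ifi27l2a (interferon-induced) and S100a4 these are mostly genes of general cell function, such as proton pump and proteasome subunits, so genes detected in part of the cells were not limited to effector genes. Gzmk was detected in 30 cells at a median of 1483 TPM, and Ccl4 in 23 at 1342 TPM.

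Detection of the panel genes, which include receptors and transcription factors beside effector genes, was only loosely linked between cells. Over 190 pairs of the 20 panel genes found in 10% to 90% of the class, the phi coefficient (a correlation of detection, over 86 cells pooled from both sorts, in which shares differ between runs of cell numbers and detection varies with depth) had a median of 0.05 and ran from -0.27 to 0.37. The highest was for the chemokine genes Ccl4 and Ccl5: Ccl5 was found in 12 of 23 cells with Ccl4 (52.2%, 30.6% to 73.2%) and 10 of 63 without (15.9%, 7.88% to 27.3%). Ccl4 was found in 10 of 17 cells with Havcr2 and 13 of 69 without (0.36). Prdm1 was found in 27 of 55 cells with Ctla4 and 5 of 31 without (0.33). Nr4a1, an early target of T cell receptor signals, was found in 10 of 36 cells with Il21 and 3 of 50 without (0.30). Nkg7 was found in 19 of 22 cells with Ccl5 and 34 of 64 without (0.30). The lowest values were -0.27 for Nkg7 and Nr4a1 (Nr4a1 in 4 of 53 cells with Nkg7 and 9 of 33 without), -0.20 for Havcr2 and Tox, and -0.19 for Ctla4 and Nkg7. Among the 43 cells with more genes detected, the values for the first 5 pairs were 0.23, 0.24, 0.15, 0.39 and 0.27, and those for the last 3 were -0.47, -0.43 and -0.09. Weak values in sparse data of this kind are a description of these cells.

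The number of genes detected bore differently on single genes. The 43 cells with more genes (2039 to 3593) had a higher share than the 43 with fewer (839 to 2037) for 25 of 30 panel genes and a lower share for 4, with overlapping intervals for all 30. Il21 was found in 18 of 43 cells on both sides, Il10 in 12 and 14, and Ifng in 9 and 8. Tox was found in 25 against 12, and Cxcr6 in 20 against 30. Single runs of cell numbers moved some shares further: Il21 was found in 40.7% and 50.0% of the class in the HIP runs and in 1 of 8, 5 of 7 and 2 of 10 cells in the Ins runs, and Pdcd1 in 6 of 8, 6 of 7 and 3 of 10 of the latter. In the same Ins runs Ifng was found in 2 of 8, 0 of 7 and 0 of 10 cells, and Prdm1 in 5 of 8, 0 of 7 and 2 of 10. Ccl5 was found there in 1 of 8, 5 of 7 and 2 of 10 cells, and Ccl4 in 0 of 8, 3 of 7 and 1 of 10. In the HIP runs Ccl5 was found in 3 of 27 and 11 of 34 cells, and Ccl4 in 8 of 27 and 11 of 34.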

How the data were processed

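Values deposited by the authors were natural logs covering 13561 genes in 441 cells. After the exponential was taken and 1 subtracted, every cell had the same total, so values were read as ln(TPM/10 + 1) and converted to TPM. The authors' annotation gave class, sort and the count of genes above 0. TopHat, Bowtie, RSEM 1.2.8 and mm10 are named per the submitters' processing notes; their roles, filters and the clustering are not given in the sources used. No doublet caller was run. The class, its markers and the lists were chosen with earlier results of these data known. Of 316 list symbols, 3 matched as older symbols and 28 had no match. Shares, differences of mean log2(TPM + 1) and phi coefficients were computed with Python 3.11.15, pandas 2.3.3 and SciPy 1.17.1. Only the differences were tested on simulated data. Named genes were the 6 markers and 30 panel genes, the 15 highest and 10 lowest against T follicular helper cells (ranked by the value nearer 0 of the 2 sorts, found in 25% of the higher class), 8 each way against Tregs, the 3 most detected of each list, 10 genes found in 20% to 60% of the class, and 8 pairs, leaving out receptor segments, unnamed models, ribosomal and mitochondrial genes. Cd69, Il2ra, Gzmb, Prf1, Ccl3, Ccr2, Ccr8, Entpd1, Mki67, Cd8a and list members named for their direction were added after their values were seen. Positions are from RefSeq on GRCm38.p6, the assembly behind mm10. A few results are not reported here.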

Additional observations from a re-analysis of the deposited data

Results flagged for a closer look

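Psmb3, a proteasome subunit gene, lay on opposite sides of 0 in the sorts: the class stood above T follicular helper cells by 1.43 in HIP and below them by a difference of -3.65 in Ins. Its transcripts were detected in 55.7% (HIP) and 24.0% (Ins) of the class and in 42.3% and 62.3% of T follicular helper cells. The difference between the sorts was not tested, and each sort is 1 sample.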

How the results depend on the processing

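The shares of the 6 class markers and of cells with at least 1, or 2 or more, of Il21, Il10 and Ifng stayed inside their own 95% intervals under detection at 10 TPM, any value above 0, cells with at least 1500 genes, TPM without Rn45s and each run of cell numbers left out. With runs left out, Il21 ranged from 36.5% to 44.9%, Il10 from 23.7% to 32.9%, Ifng from 15.4% to 22.4% and 2 or more cytokines from 22.0% to 30.3%. With a pseudocount of 10 TPM the genes higher and lower than T follicular helper cells in both sorts numbered 79 and 24 in place of 171 and 62, and those higher and lower than Tregs 117 and 206 in place of 408 and 612, because a larger pseudocount shrinks differences of low genes. No filter, cells with at least 1500 genes, TPM without Rn45s and equal weight per run left these counts within 1.5 times. Of 835 recomputed differences of named genes, 798 stayed on their side of 1, 37 crossed it (23 with the pseudocount of 10 TPM) and 0 changed sign after being counted. Of the 798, 167 came from the setting with no filter. That setting leaves each difference as it was, so these 167 could not move. Unknown depth, 25 Ins cells and 1 sample per sort limit the precision. No paired analysis was possible because cell numbers only name cells and each sort is 1 sample.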
